A study of Mus musculus with 14 samples.

Results

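Fibroblast growth factor (FGF) transcripts were examined in bulk RNA-seq libraries of mouse plexiform neurofibromas (PNs) and control nerve tissue. The genes were chosen by symbol and comprise 4 secreted ligands (*Fgf1*, *Fgf2*, *Fgf7* and *Fgf10*), the intracellular factor *Fgf13*, and 3 receptors (*Fgfr1*, *Fgfr2* and *Fgfr3*), so that 8 of the 24062 genes in the count table are described. All 8 passed edgeR's expression filter in every comparison. Controls were dorsal root ganglia (DRGs) with nerves of *Nf1fl/fl* mice (n = 3). PNs came from *DhhCre;Nf1fl/fl* mice (n = 11), in which Cre under the *Dhh* promoter removes the floxed *Nf1* in the Schwann cell (SC) lineage, while other cells of the tumor keep the gene. Mice of all groups were untreated and of a mixed C57BL/6, I-129 and FVBN background, and controls carried the floxed allele without Cre. By MRI at 7 and 9 months of age, the volume of 5 PNs had moved by under 5 mm3 in 2 months (slow growing), and that of 6 had grown by over 35 mm3 (fast growing). The study's text gives the age at collection as 9 months in one place and 7 months in another.

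Secreted FGFs bind heparan sulfate and FGF receptor tyrosine kinases on the cell surface, and the bound receptors recruit the adaptor *Frs2* and signal through RAS and ERK. Neurofibromin, the product of *Nf1*, is a negative regulator of RAS, and genes of the Sprouty, SPRED, DUSP and ETV families are known to respond to FGF and ERK activity. *Fgf1* is well known in sensory and motor neurons, *Fgf7* and *Fgf10* are products of mesenchymal cells that act on the epithelial isoform of FGFR2, and FGF13 is not secreted but binds voltage-gated sodium channels and microtubules in neurons.

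The libraries held 9596773 to 17594164 gene counts, so that 3 counts of a gene corresponded to 0.166 to 0.317 CPM, the read counts scaled to a common library size with TMM factors. This floor covers counting error only. *Nf1* itself was measured at 131 to 229 CPM in controls and at 224 to 292.5 CPM in PNs, but counts per gene do not resolve the floxed exons, so this does not check the genotype. SC and sensory neuron markers were detected in all groups. One library, fast-growing PN 4, stood apart, since its 14 sensory neuron markers summed to 30.3 CPM, whereas the other 13 libraries had 1483 to 11805 CPM. Fat markers (13 genes, mean log2(CPM + 1)) scored 7.41 to 7.67 in controls, 1.07 to 6.08 in slow-growing PNs and 0.698 to 3.14 in fast-growing PNs, and skeletal muscle markers (15 genes) scored 7.58 to 9.56 in controls and 1.20 to 7.49 in PNs. These scores do not overlap between controls and PNs. In whole tissue, fewer cells of a type and less RNA per cell cannot be told apart.

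*Fgf1* was the most abundant of the 8 transcripts for its length. Divided by the length of the longest annotated transcript, levels averaged 131 CPM per kb for *Fgf1* and 71.2 CPM per kb for *Fgf13* over the 14 libraries. The receptor *Fgfr1* followed with 22.95 CPM per kb, then *Fgf7* with 13, *Fgfr2* with 3.24, *Fgf2* with 1.16, *Fgfr3* with 1.05 and *Fgf10* with 0.573 CPM per kb. Of the summed level per length of the 4 secreted ligands, *Fgf1* made up 87.2% ± 7.30 (SD, n = 14), with a range of 70.2% to 97.0%. Of the summed level per length of *Fgfr1*, *Fgfr2*, *Fgfr3* and *Fgfr4*, *Fgfr1* made up 83.8% ± 5.28 (SD, n = 14), *Fgfr2* 11.9% ± 4.64 and *Fgfr3* 3.98% ± 1.22. *Fgfr4* was at or near the floor, with 0 to 9 counts per library. Thus, per length and in every group, *Fgf1* held most of the transcripts of these 4 secreted ligands and *Fgfr1* most of those of the 4 receptors. Other secreted FGFs were outside the ligand sum, such as *Fgf4* with a mean of 1.90 CPM per kb in controls.

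**Figure D1:**
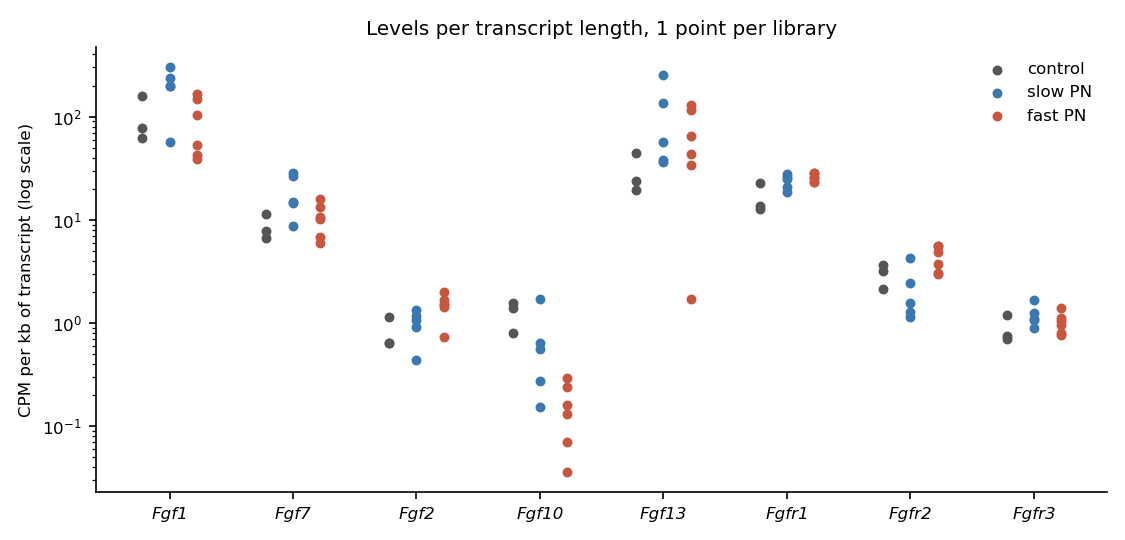
Levels of the 8 genes in CPM per kb of the longest annotated transcript, on a log scale, with 1 point per library and colors for control (n = 3), slow-growing PN (n = 5) and fast-growing PN (n = 6). *Fgf1* and *Fgf13* lie highest on average, *Fgfr1* lies above the other 2 receptors in every library, and 1 fast-growing PN has *Fgf13* at 1.69 CPM per kb.

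The comparison of PNs with controls asked which FGF genes differ between tumor and normal tissue, and each growth group was then set against the same 3 controls, so these comparisons share their control libraries. By edgeR's quasi-likelihood test at a Benjamini-Hochberg adjusted p under 0.05, 1 of the 8 genes (*Fgfr1*) rose in PNs and 0 fell, whereas 12.9% of all tested genes rose and 13.4% fell. For slow-growing PNs versus controls, 0 of 8 genes passed, where 4.12% of all tested genes rose and 7.13% fell. There 2 genes (*Fgf7* and *Fgf13*) had an unadjusted p under 0.05, as had 4765 of all 15714 tested genes. DESeq2 called the same 2 and 3529 of all genes, and limma-voom called 0 of the 8. In fast-growing PNs versus controls, *Fgfr1* rose and *Fgf10* fell, beside 14.8% of all tested genes that rose and 16.7% that fell. Between fast- and slow-growing PNs, 0 of 8 genes passed edgeR's test, where 0.802% of all tested genes were higher and 0.466% were lower in fast-growing PNs. In that comparison 4 genes (*Fgf1*, *Fgf7*, *Fgf10* and *Fgfr2*) had an unadjusted p under 0.05, as had 3155 of all 15465 tested genes. DESeq2 called only *Fgf10* of the 8 and 1592 of all genes, and limma-voom called 0 of the 8. The ranges of the groups did not overlap for 2 of 8 genes in fast-growing PNs versus controls (*Fgfr1* and *Fgf10*), against 32.4% of all tested genes. No gene of the 8 had separate ranges in PNs versus controls, in slow-growing PNs versus controls, or in fast- versus slow-growing PNs, where 17.7%, 23.4% and 3.01% of all tested genes had. The shares called among the 8 genes therefore lie near the background or below it. The median log2 fold change of the 8 was 0.54 in PNs versus controls beside 0.10 for all tested genes. It was 0.44 in slow-growing and 0.36 in fast-growing PNs versus controls, beside 0.04 and 0.02. In fast- versus slow-growing PNs it was −0.46 beside −0.03 for all tested genes.

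**Figure D2:**
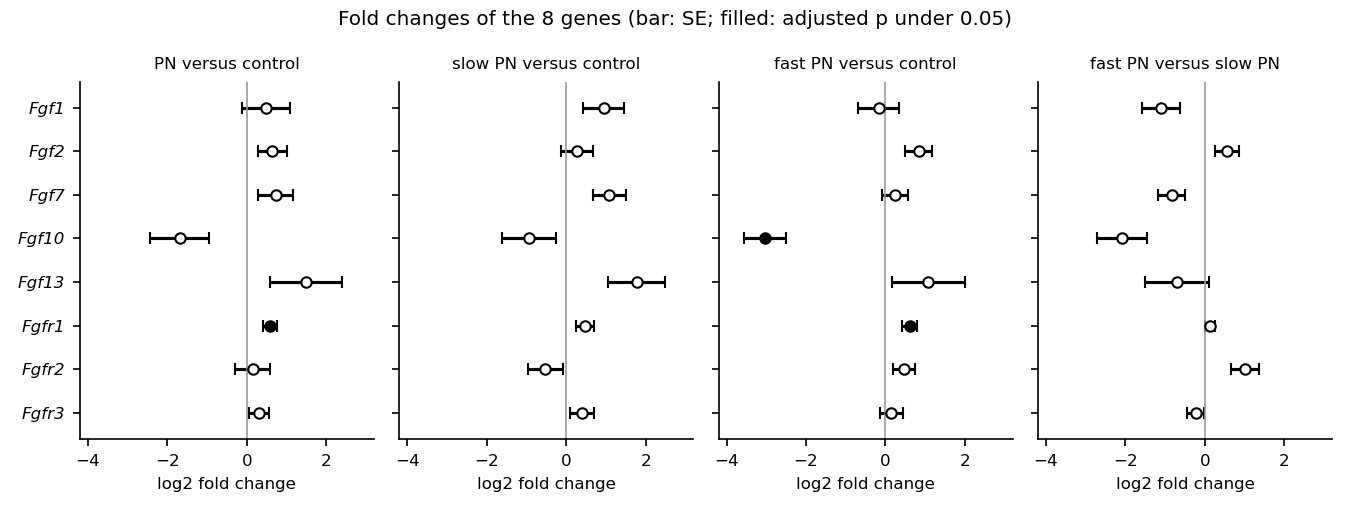
Log2 fold changes of the 8 genes in the 4 comparisons, with bars for the standard error (SE) and filled circles for an adjusted p under 0.05 by edgeR's quasi-likelihood test. *Fgfr1* passes in PNs and in fast-growing PNs versus controls, *Fgf10* passes in fast-growing PNs versus controls, and no gene passes between the growth groups.

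*Fgf1* encodes the acidic FGF, a ligand of all FGF receptors that lacks a classical signal peptide. It lies on the minus strand of chromosome 18 of mm10 from 38838673 to 38929472. Its level was 634.5, 310.0 and 247 CPM in the 3 controls. It was 782.5, 226, 945.5, 1198 and 784 CPM in the 5 slow-growing PNs, and 156 CPM at the lowest, 309.5 CPM at the median and 657 CPM at the highest in the 6 fast-growing PNs. Of the slow-growing PNs, 4 lay above every control and 1 lay below every control, and no fast-growing PN lay above 4 of the 5 slow-growing PNs. The order of the means was slow-growing PN (787 ± 356.5), control (397 ± 208) and fast-growing PN (366 ± 221 CPM, SD), and no neighbours in this order passed edgeR's test. The log2 fold change was 0.95 (SE 0.52, adjusted p = 0.244) in slow-growing PNs versus controls, −0.17 (0.51, adjusted p = 0.832) in fast-growing PNs versus controls, and −1.11 (0.47, adjusted p = 0.216 by edgeR's quasi-likelihood test) in fast- versus slow-growing PNs. In the library with almost no sensory neuron markers, *Fgf1* was at 171 CPM, and the median of the other 5 fast-growing PNs (409 CPM) was 2.40 times higher. Of those 5, PNs 6 and 3 had 156 and 210.2 CPM with neuron marker sums of 2149 and 2667 CPM, and PNs 1, 5 and 2 had 409, 591 and 657 CPM with sums of 4695, 5015 and 7109 CPM. Slow-growing PNs 2, 5, 1, 3 and 4 had 226, 784, 782.5, 945.5 and 1198 CPM with sums of 1988, 2541, 4615, 6290 and 11805 CPM. In fast- versus slow-growing PNs, 0 of 6 myelinating SC markers had a positive fold change (median log2 fold change −0.88), and 0 passed edgeR's test. Of these markers 5 had an unadjusted p under 0.05, as had 3155 of all 15465 tested genes. Slow-growing PN 5 had the highest myelinating SC score of all libraries (9.897). Slow-growing PN 4, with the highest *Fgf1*, had the lowest score of the slow-growing PNs (7.995). The parts of neuronal and of myelinating SC RNA in the *Fgf1* levels were not tested.

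*Fgf2*, the basic FGF and another ligand without a signal peptide, was low in all libraries (29 to 182 counts). It was at 6.82, 3.79 and 3.80 CPM in controls, at 6.46, 8.035, 5.48, 2.645 and 7.035 CPM in slow-growing PNs, and at 4.35, 9.04 and 11.95 CPM as the lowest, median and highest of the fast-growing PNs. In 5 of 6 fast-growing PNs it was higher than in every control and every slow-growing PN. The log2 fold change in fast-growing PNs versus controls was 0.83 (SE 0.34, adjusted p = 0.089 by edgeR's quasi-likelihood test), which did not pass. It passed without fast-growing PN 2 (adjusted p = 0.0191) and without control 1 (adjusted p = 0.0465 by the same edgeR test). *Fgf2* shares 827 exonic bases with *Nudt6* on the opposite strand and 1025 with *Gm43439* on its own strand (chromosome 3, 37348346 to 37410108, plus strand). The strand setting of the counting is not given in the sources used here, so reads of these genes may not have been told apart.

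*Fgf7* and *Fgf10* are sister ligands of one subfamily, and *Fgf10* was called in fast-growing PNs versus controls while *Fgf7* passed edgeR's test in no comparison. No test compared the pair. The RefSeq windows of GRCm38.p6 upstream of their start sites are shown to let *Fgf10* be read beside its sister gene. The *Fgf7* window borders the start of the gene in GENCODE (126034658). The *Fgf10* window lies inside the GENCODE span of that gene (118669791 to 118792115), so its RefSeq start is not the first start in GENCODE. Each run covers the 250 bases before the start, and capitals mark the only matches, on either strand, to the TATA box (TATAAA), the CCAAT box (CCAAT) or the GC box (GGGCGG).
*Fgf7* (chr2:126034408-126034657, plus strand): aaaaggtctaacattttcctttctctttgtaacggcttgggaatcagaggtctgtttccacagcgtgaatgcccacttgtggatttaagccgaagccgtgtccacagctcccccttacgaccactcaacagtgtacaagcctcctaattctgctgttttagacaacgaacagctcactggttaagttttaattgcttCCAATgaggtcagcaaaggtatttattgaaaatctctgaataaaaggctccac
*Fgf10* (chr13:118714449-118714698, plus strand): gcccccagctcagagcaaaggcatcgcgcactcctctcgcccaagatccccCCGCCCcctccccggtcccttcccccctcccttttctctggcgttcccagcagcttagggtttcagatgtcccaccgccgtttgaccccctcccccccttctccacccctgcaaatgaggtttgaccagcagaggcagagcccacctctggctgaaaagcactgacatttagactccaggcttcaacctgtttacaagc
The *Fgf7* window holds 1 CCAAT and no GGGCGG, has a GC content of 43.6% and contains 6 CpG dinucleotides. The *Fgf10* window holds 1 GGGCGG on the reverse strand and no CCAAT, has a GC content of 61.2% and contains 8 CpG dinucleotides. Among 32841 windows of the same length, 33.9% hold CCAAT, 32.7% hold GGGCGG and 12.4% hold TATAAA, and the median GC content is 52.4% with 6 CpG dinucleotides. A match describes letters and not a bound site. Windows were found for 6 of the 8 genes, among them 4 for *Fgf13* and 2 for *Fgfr3*.

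*Fgf7*, the keratinocyte growth factor, was at 30.4, 17.65 and 20.7 CPM in controls. It was at 71.8, 38.9, 40.2, 23.2 and 75.65 CPM in slow-growing PNs, and at 16.0, 27.7 and 42.7 CPM as the lowest, median and highest of the fast-growing PNs. Of the 5 slow-growing PNs, 4 lay above every control, whereas the fast-growing PNs spanned the control range. The means were ordered slow-growing PN (49.9 ± 22.8), fast-growing PN (27.98 ± 10.1) and control (22.9 ± 6.66 CPM, SD), and no neighbours in this order passed edgeR's test. The log2 fold change in slow-growing PNs versus controls was 1.09 (SE 0.41, adjusted p = 0.12 by edgeR's quasi-likelihood test). It passed without slow-growing PN 4 (adjusted p = 0.0359 by the same edgeR test). Between fast- and slow-growing PNs it was −0.84 (SE 0.34, adjusted p = 0.188 by edgeR's test).

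*Fgf10*, a ligand that organ buds and fat cell precursors are known to use, was the gene with the largest fold change in size in fast-growing PNs versus controls among the 8. It was at 3.28, 6.37 and 5.71 CPM in controls (38, 69 and 54 counts). It was at 1.14, 2.33, 2.64, 0.638 and 7.035 CPM in slow-growing PNs (15, 31, 26, 7 and 73 counts), and at 0.148, 0.604 and 1.21 CPM as the lowest, median and highest of the fast-growing PNs (2 to 18 counts). Every fast-growing PN lay below every control, 4 of 5 slow-growing PNs did as well, and slow-growing PN 5 lay above all controls. The mean of the controls (5.12 ± 1.63 CPM, SD) was 8.003 times that of the fast-growing PNs (0.640 ± 0.403 CPM). The log2 fold change in fast-growing PNs versus controls was −3.03 (SE 0.53, adjusted p = 0.00234 by edgeR's quasi-likelihood test), and leaving out any single library kept it between −3.28 and −2.83 with adjusted p of 0.00274 to 0.0131 by the same edgeR test. In slow-growing PNs versus controls it was −0.93 (SE 0.68, adjusted p = 0.366 by edgeR's test). The order of the means was control, slow-growing PN (2.76 ± 2.53 CPM, SD) and fast-growing PN, and no neighbours in it passed edgeR's test, while DESeq2 called the difference between the growth groups (adjusted p = 0.0191). *Fgf10* (chromosome 13, 118669791 to 118792115, plus strand) shares 69 exonic bases with *Gm16263* on the opposite strand. The difference between fast- and slow-growing PNs was −2.08 (SE 0.63, adjusted p = 0.0969 by edgeR's test). For all PNs versus controls the log2 fold change was −1.69 (SE 0.75, adjusted p = 0.11 by edgeR's test), and it was −2.28 without slow-growing PN 5 (adjusted p = 0.0106 by the same edgeR test). In that comparison limma-voom called *Fgf10* (log2 fold change −2.36), as did edgeR with all 14 libraries in 1 fit.

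Transcripts of fat and 3 of 4 pericyte and smooth muscle markers moved with *Fgf10*. The 3 slow-growing PNs with fat scores of 5.96 to 6.08 (numbers 2, 3 and 5) had the 3 highest levels of *Fgf10* among PNs (2.33, 2.64 and 7.035 CPM), while slow-growing PN 4 with a fat score of 1.07 had 0.638 CPM. *Adipoq*, the fat cell hormone adiponectin, ranged from 287 to 440.0 CPM in controls and from 0.0731 to 29.5 CPM in fast-growing PNs, and all 13 fat markers fell in fast-growing PNs versus controls by edgeR's test, where 16.7% of all tested genes fell. Pericyte and smooth muscle markers (4 genes) scored 7.16 to 7.53 in controls. They scored 7.675 in slow-growing PN 5, the library with the highest *Fgf10*, but 4.22 to 5.58 in the other 10 PNs. Of the 4 markers, *Acta2*, *Myh11* and *Myl9* fell in fast-growing PNs versus controls. *Rgs5* did not, with means of 77.9 CPM in controls, 80.5 CPM in slow-growing PNs and 69.9 CPM in fast-growing PNs. Endothelial markers (6 genes) scored 5.58 to 5.90 in controls, 5.82 in slow-growing PN 5 and 3.88 to 5.39 in the other 10 PNs, and 3 of 6 fell in fast-growing PNs versus controls. With the fat and muscle scores as covariates, the *Fgf10* difference had a log2 fold change of −4.32 with a SE of 2.45 and an adjusted p = 0.823 by edgeR's test. In PNs versus controls it was −0.25 in such a fit (SE 1.01, adjusted p = 0.904 by edgeR's test). Since fat scores of controls and PNs do not overlap, these fits cannot separate fat from the groups, so the part of fat cannot be told apart, and that of pericytes, smooth muscle and endothelium was not tested. The genes whose centred log2(CPM + 1) ran nearest to *Fgf10* over the 14 libraries, among 11041 candidates, were *Adipor2*, an adiponectin receptor (root mean square difference 0.348), and *Adh1*, an alcohol dehydrogenase (0.358), where the SD of *Fgf10* itself was 0.95. At 0.148 to 7.035 CPM, *Fgf10* is compressed by the added 1 more than these genes, so this nearness depends on the scale. *Adipor2* still had a median of 57.8 CPM in the fast-growing PNs other than PN 4.

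*Fgf13* (chromosome X, 59062145 to 59568071, minus strand) had the widest range among PNs of the 8 genes, as highest over lowest level. Its level was 112, 59.1 and 48.8 CPM in controls. It was 143, 95.1, 339.6, 633.5 and 91.35 CPM in slow-growing PNs, and 4.23, 135 and 321 CPM as the lowest, median and highest of the fast-growing PNs. The highest PN exceeded the lowest 149.6 times, and 6 of 11 PNs lay above every control. The order of the means was slow-growing PN (261 ± 232), fast-growing PN (161 ± 122) and control (73.4 ± 34.0 CPM, SD), and no neighbours in this order passed edgeR's test. The log2 fold change was 1.78 (SE 0.71, adjusted p = 0.138) in slow-growing PNs and 1.08 (0.92, adjusted p = 0.415) in fast-growing PNs versus controls by edgeR's quasi-likelihood test.

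The lowest level of *Fgf13* belonged to the neuron-poor library. *Fgf13* was at 4.23 CPM in fast-growing PN 4, and the median of the other 5 fast-growing PNs (161 CPM) was 38.05 times higher. Without this library the mean of the fast-growing PNs was 192.5 ± 106 CPM (SD, n = 5), and the log2 fold change versus controls was 1.33 (SE 0.48, edgeR adjusted p = 0.0625). *Fgf12*, another factor of the same sodium channel-binding family, was at 1.74 CPM there against a median of 73.15 CPM in the other 5. At the other end, slow-growing PN 4, with the highest neuron score of all libraries (8.985 on the log2 scale), had the highest *Fgf13* (633.5 CPM), *Fgf12* (405 CPM) and *Fgf1* (1198 CPM). Both extremes of *Fgf13* thus fell in the libraries with the lowest and the highest sensory neuron scores. No sensory neuron marker passed edgeR's test in PNs or in fast-growing PNs versus controls (0 of 14 in each), and the part of neuronal RNA in the spread of *Fgf13* was not tested.

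**Figure D3:**
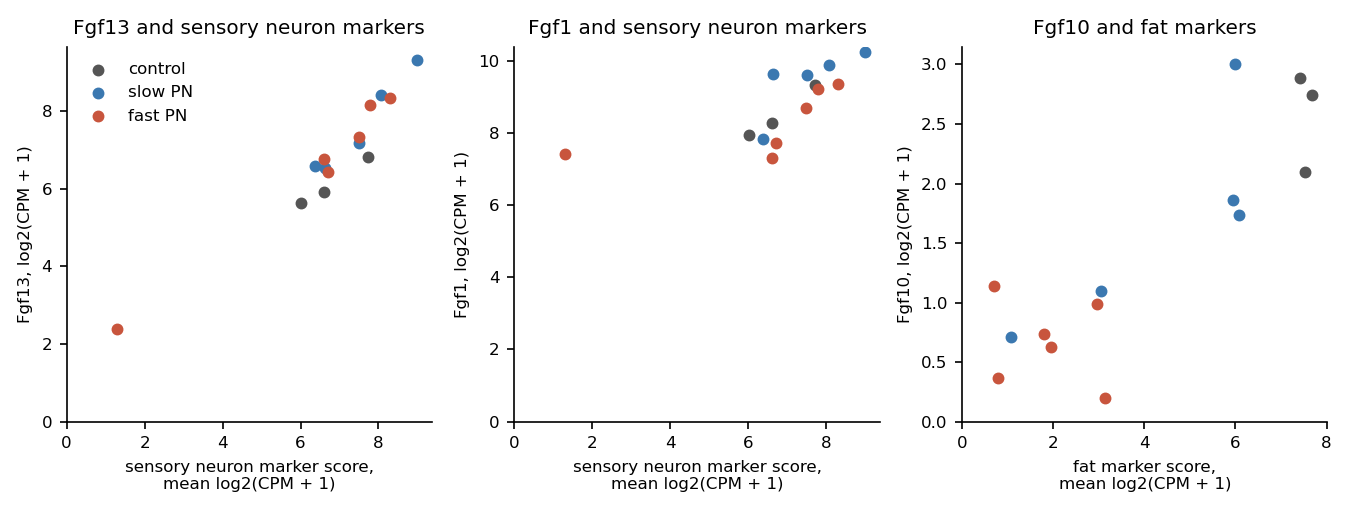
Levels of *Fgf13* and *Fgf1* against the sensory neuron marker score, and of *Fgf10* against the fat marker score, both axes as log2(CPM + 1) and 1 point per library, colored by group. Fast-growing PN 4 lies far to the left with a neuron score of 1.30, where *Fgf13* is low and *Fgf1* is at 171 CPM, and the libraries with a fat score above 5 hold the 6 highest levels of *Fgf10*.

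*Fgfr1*, the receptor with the broadest expression in mesenchymal and neural tissue, rose in PNs. It was at 114, 64.7 and 68.7 CPM in controls. It was at 93.5, 130.4, 138.6, 124.4 and 105.8 CPM in slow-growing PNs, and at 116, 129.9 and 144 CPM as the lowest, median and highest of the fast-growing PNs. Every fast-growing PN lay above every control, though the lowest (116 CPM) was close to control 1, and 3 of 5 slow-growing PNs lay above every control. In PNs versus controls the means were 125 ± 15.6 and 82.6 ± 27.6 CPM (SD, n = 11 and 3), a 1.51-fold rise, or by 0.59 on the log2 scale (SE 0.18, adjusted p = 0.0233 by edgeR's quasi-likelihood test). In fast-growing PNs it was 0.61 (SE 0.18, adjusted p = 0.0292), in slow-growing PNs 0.48 (0.23, adjusted p = 0.189), and between the growth groups 0.13 (0.12, adjusted p = 0.571, all by edgeR's test). The spread was narrow in fast-growing PNs, with a coefficient of variation of 9.235% that was the lowest of the 8 genes in that group.

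Nonmyelinating and pan-glial SC markers (6 genes) moved with *Fgfr1*, with scores of 6.51 to 8.04 in controls and 8.25 to 9.12 in PNs, where 4 of 6 rose and 0 fell. Of 8 fibroblast markers, 0 rose and 1 fell in PNs versus controls, and 6 rose and 1 fell in fast-growing PNs versus controls. Of all tested genes, 12.9% rose and 13.4% fell in PNs, and 14.8% rose and 16.7% fell in fast-growing PNs. Their part in the *Fgfr1* result was not tested.

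The call of *Fgfr1* depended on controls 2 and 3, the lower ones. In PNs versus controls the adjusted p of edgeR's test was 0.154 without control 2 and 0.153 without control 3, with log2 fold changes of 0.45 and 0.48. After correction of each library for transcript length and GC, the log2 fold change was 0.45 (adjusted p = 0.0517 by edgeR), and with muscle and fat scores as covariates it was 0.43 (adjusted p = 0.45 by edgeR). In fast-growing PNs the call was lost without control 2, control 3, fast-growing PN 1 or fast-growing PN 6 (edgeR adjusted p of 0.126, 0.122, 0.0569 and 0.0532). The 2 genes nearest to *Fgfr1* over the 14 libraries, among 11040 candidates, were *Samd4b*, an RNA-binding protein (root mean square difference 0.125), and *Csnk1e*, a casein kinase (0.138), where the SD of *Fgfr1* was 0.36. *Fgfr1* lies on chromosome 8 from 25513654 to 25575718 on the plus strand and shares 741 exonic bases with *Gm16159* on the opposite strand.

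*Fgfr2*, whose epithelial isoform binds FGF7 and FGF10, was at 16.15, 9.42 and 14.2 CPM in controls. It was at 6.99, 5.71, 10.8, 5.02 and 18.8 CPM in slow-growing PNs, and at 13.15, 18.9 and 24.8 CPM as the lowest, median and highest of the fast-growing PNs. Of the slow-growing PNs, 4 lay below every fast-growing PN, and slow-growing PN 5 lay among them. The means were ordered fast-growing PN (19.0 ± 5.34), control (13.2 ± 3.45) and slow-growing PN (9.45 ± 5.67 CPM, SD), and no neighbours in this order passed edgeR's test. The difference between fast- and slow-growing PNs was 1.005 on the log2 scale (SE 0.35), with an adjusted p = 0.135 by edgeR's quasi-likelihood test. Counts per gene do not separate the IIIb and IIIc isoforms, and none of the 3 tested regulators of this splicing choice passed in any comparison by edgeR, DESeq2 or limma-voom. In GENCODE, *Fgfr2* (chromosome 7, 130162451 to 133123350, minus strand) shares 210 exonic bases with *Ctbp2* on its own strand. The RefSeq window before its start (130266809 to 130267058) lies inside this span, so the span and the overlap hold for the GENCODE model only.

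*Fgfr3* is a receptor known from cartilage and glia. It was at 3.195, 2.96 and 5.07 CPM in controls, at 4.56, 4.66, 5.28, 3.83 and 7.035 CPM in slow-growing PNs, and at 3.22, 4.28 and 5.91 CPM as the lowest, median and highest of the fast-growing PNs. The ranges of all 3 groups overlapped. The largest group mean exceeded the smallest 1.36 times, the lowest such ratio of the 8 genes, and the log2 fold change was 0.32 (SE 0.25, adjusted p = 0.382 by edgeR's test) in PNs versus controls. *Fgfr3* (chromosome 5, 33721674 to 33737068, plus strand) shares 1771 exonic bases with *G630022F23Rik* on the opposite strand.

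**Figure D4:**
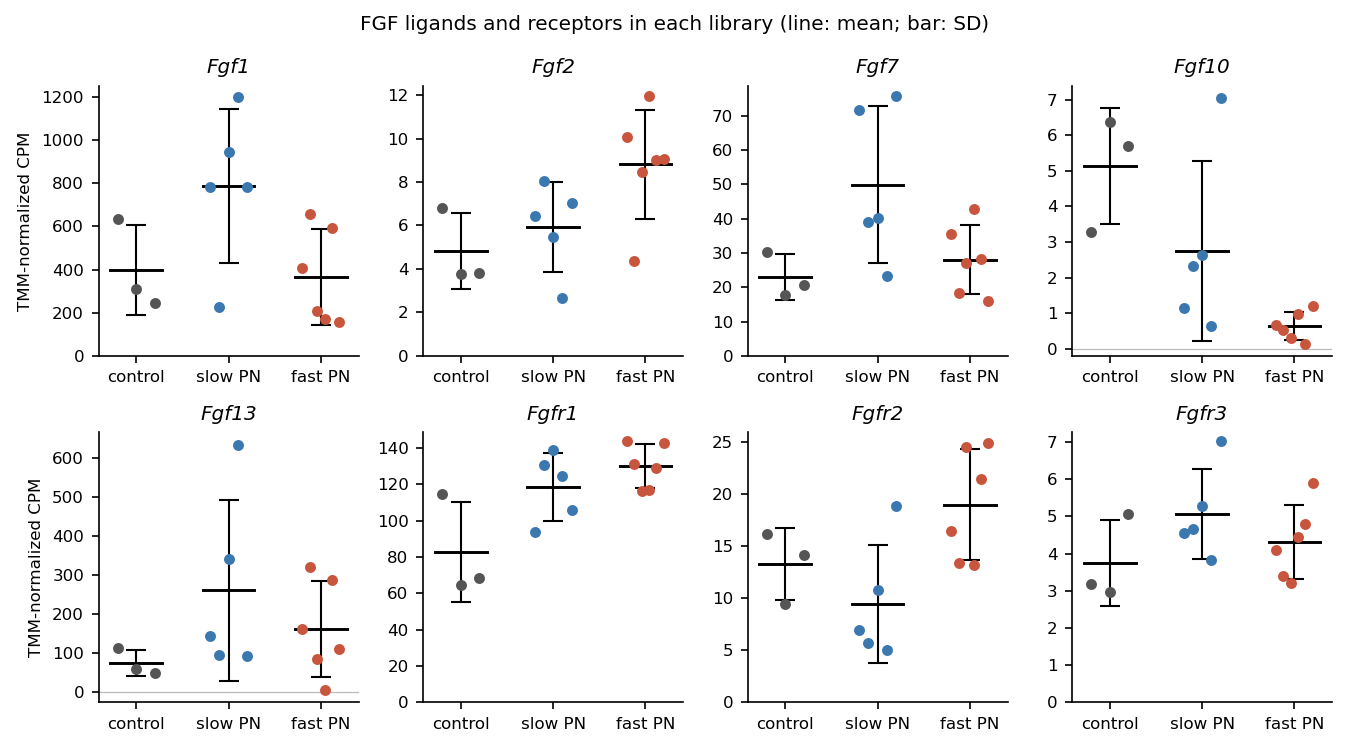
TMM-normalized CPM of the 8 genes, 1 point per library, with the mean as a line and the SD as a bar, for control (n = 3), slow-growing PN (n = 5) and fast-growing PN (n = 6). All fast-growing PNs lie below the controls for *Fgf10* and above them for *Fgfr1*, and the groups overlap for the other 6 genes.

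Of 11 other paracrine ligands, 4 passed the filter in PNs versus controls and 0 were called by edgeR, DESeq2 or limma-voom, with 0 at an unadjusted p under 0.05. *Fgf5* (log2 fold change 0.81), *Fgf9* (0.23) and *Fgf18* (0.16) had edgeR adjusted p of 0.328, 0.724 and 0.87. *Fgf8* was at 0 counts in all 14 libraries, and none of the 3 endocrine ligands passed the filter. *Fgf4* was the exception between the growth groups. It lay at 4.56 to 14.2 CPM in slow-growing PNs and at 1.81 to 4.08 CPM in fast-growing PNs, with no overlap, and differed by −1.83 on the log2 scale (SE 0.34, edgeR adjusted p = 0.0449). This call was lost in 8 of 11 fits with 1 library left out. Of the other intracellular factors, *Fgf11* rose in PNs (log2 fold change 0.82, SE 0.25, edgeR adjusted p = 0.026), while *Fgf12* (0.89, adjusted p = 0.494) and *Fgf14* (−0.39, adjusted p = 0.462) did not pass. All 6 tested sodium channels of that family had positive fold changes in PNs versus controls, yet 0 were called by edgeR, DESeq2 or limma-voom and 0 had an unadjusted p under 0.05. *Scn10a* (log2 fold change 1.59), *Scn11a* (1.39) and *Scn9a* (1.09) had edgeR adjusted p of 0.322, 0.39 and 0.471. Fold changes of the channels were positive for 3 of 6 in fast-growing PNs versus controls and for 0 of 6 in fast- versus slow-growing PNs. All 14 sensory neuron markers also had positive fold changes in PNs versus controls (median log2 fold change 0.48), with 0 called by edgeR.

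Of the 4 other receptors and co-receptors, 3 were tested in PNs versus controls, and 1 rose and 2 fell, where 12.9% of all tested genes rose and 13.4% fell. *Fgfrl1*, a receptor without a kinase domain, fell in PNs (13.04 against 27.0 CPM, log2 fold change −1.05, SE 0.29, edgeR adjusted p = 0.0158), and every PN lay below every control. *Klb*, the co-receptor for the endocrine ligands FGF19/15 and FGF21 in liver and fat, fell by 2.77 on the log2 scale in PNs (SE 0.92, edgeR adjusted p = 0.0381) and had a log2 fold change of −4.90 in fast-growing PNs (0.45, adjusted p = 7e-05 by edgeR's test). *Kl*, the co-receptor for FGF23, rose, with a log2 fold change of 0.97 (SE 0.32, edgeR adjusted p = 0.0365). The *Klb* call was lost in 7 of 14 fits with a library left out, as was that of *Kl*, and the fold change of *Klb* in PNs turned to 0.50 with muscle and fat scores as covariates (edgeR adjusted p = 0.701). Among extracellular partners of the receptors, *Ncam1* (log2 fold change 2.30, SE 0.36, edgeR adjusted p = 0.000408) and *Flrt3* (1.505, 0.25, adjusted p = 0.000704 by edgeR) rose in PNs with no overlap with controls, and both rose in either growth group. Their calls in slow-growing PNs were each lost without control 2 and without control 3 (edgeR adjusted p of up to 0.065 for *Ncam1* and 0.087 for *Flrt3*). *Cdh2* did not pass (0.53, edgeR adjusted p = 0.2). With 1 library left out, the PN calls of *Ncam1* and *Flrt3* were lost in 0 of 14 fits, that of *Fgfrl1* in 1 and that of *Fgf11* in 3.

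The heparan sulfate list holds core proteins and enzymes of the chains. Of 26 genes tested, 8 rose, 1 fell and 17 did not pass in PNs versus controls (beside 12.9% and 13.4% of all tested genes that rose and fell), 0 rose and 1 fell in slow-growing PNs (beside 4.12% and 7.13%), and 14 rose, 1 fell and 11 did not pass in the fast-growing ones (beside 14.8% and 16.7%), with median log2 fold changes of 0.81, 0.54 and 0.86 beside 0.10, 0.04 and 0.02 for all tested genes. The sulfotransferases *Ndst1* (log2 fold change 0.83, edgeR adjusted p = 0.0114) and *Ndst3* (1.58, adjusted p = 0.0106 by edgeR) rose in PNs, and *Hpse*, the heparanase that cleaves the chains, fell (−2.68, adjusted p = 0.00489 by edgeR). Between fast- and slow-growing PNs the syndecan *Sdc1* was the 1 gene of the list that edgeR called (log2 fold change 1.03, SE 0.20, adjusted p = 0.0449 by edgeR's test). Of all tested genes, 0.802% were higher and 0.466% were lower in fast-growing PNs. The ranges of *Sdc1* did not overlap, though this call too was lost in 8 of 11 fits with 1 library left out. In that comparison DESeq2 called 4 genes of the list and limma-voom 0. With 1 library left out edgeR called 0 to 6 of the list higher, with 6 without slow-growing PN 2 and 3 without slow-growing PN 4. Of all genes, edgeR called 196 with every library and 1194 without slow-growing PN 2, and DESeq2 called 1592. Without control 3, 0 of the 26 rose in PNs versus controls, and without control 2, 1 did. In fast-growing PNs 10 to 14 rose with each library left out. Of all genes, edgeR called 2061 in PNs versus controls without control 3, against 4283 with every library. In fast-growing PNs versus controls it called 3342 to 5247 with each library left out. The PN calls of *Ndst1* and *Ndst3* were each lost in 2 of 14 such fits and that of *Hpse* in 1. *Hpse*, the gene that fell in slow-growing PNs, lost that call in 7 of 8 such fits and its call in fast-growing PNs in 5 of 9. Pan-glial SC markers (4 of 6 higher, median log2 fold change 1.53) and fibroblast markers (6 of 8 higher and 1 lower, median 1.41) moved with this list in fast-growing PNs versus controls, and their part was not tested.

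Downstream of the receptors, 3 of 12 adaptors and effectors rose and 0 fell in PNs, where 12.9% of all tested genes rose and 13.4% fell. These were *Frs2*, the docking protein of activated FGF receptors (log2 fold change 0.76, SE 0.15, edgeR adjusted p = 0.0018), *Shc1* (0.84, adjusted p = 0.03 by edgeR) and *Gab1* (0.83, adjusted p = 0.0403 by edgeR). With 1 library left out, the call of *Gab1* was lost in 10 of 14 fits (edgeR adjusted p of 0.00513 to 0.209), that of *Shc1* in 3 and that of *Frs2* in 0. After correction for transcript length and GC, *Frs2* no longer passed, with a log2 fold change of 0.35 in PNs (edgeR adjusted p = 0.0647) and 0.19 in fast-growing PNs (edgeR adjusted p = 0.188). Of 13 tested feedback and ETV genes, 5 rose and 1 fell in PNs, 0 passed in slow-growing PNs and 8 rose and 1 fell in fast-growing PNs, where 14.8% of all tested genes rose and 16.7% fell. The pan-glial SC and fibroblast markers given for the heparan sulfate list (4 of 6 and 6 of 8 higher in fast-growing PNs) moved with this list too, and their part was not tested. In PNs versus controls DESeq2 called 7 of the 13, beside 5170 of all genes, and limma-voom 3. In slow-growing PNs 3 of the 13 had an unadjusted p under 0.05, DESeq2 called 3 and limma-voom called 2. There 4765 of all 15714 tested genes had an unadjusted p under 0.05, and DESeq2 called 3529 of all genes. The ETS factors *Etv1* (log2 fold change 1.49, SE 0.28, edgeR adjusted p = 0.00168) and *Etv4* (2.82, SE 0.76, adjusted p = 0.014 by edgeR) rose in PNs, and the phosphatase gene *Dusp4* fell (−1.52, SE 0.38, adjusted p = 0.00983 by edgeR) with every PN below every control. With 1 library left out, the call of *Etv4* was lost in 2 of 14 fits and those of *Etv1* and *Dusp4* in 0. In fast- versus slow-growing PNs 0 of the 13 passed edgeR's test, 6 had an unadjusted p under 0.05, DESeq2 called 1 and limma-voom 0. Of all 15465 tested genes, 3155 had an unadjusted p under 0.05 there, and DESeq2 called 1592 of all genes. Without slow-growing PN 2, edgeR called 5 of them higher in fast-growing PNs, and 0 or 1 without any other single library. The fit without slow-growing PN 2 called 1194 of all genes, against 196 with every library. In PNs versus controls 3 of the 13 rose without control 1, 2 without control 2 and 1 without control 3. In fast-growing PNs 6 of the 13 rose without control 3. Of all genes, edgeR called 2061 in PNs and 3342 in fast-growing PNs without control 3, against 4283 and 5043 with every library. The feedback and ETV genes are known to respond to many receptors besides those for FGFs.

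**Figure D5:**
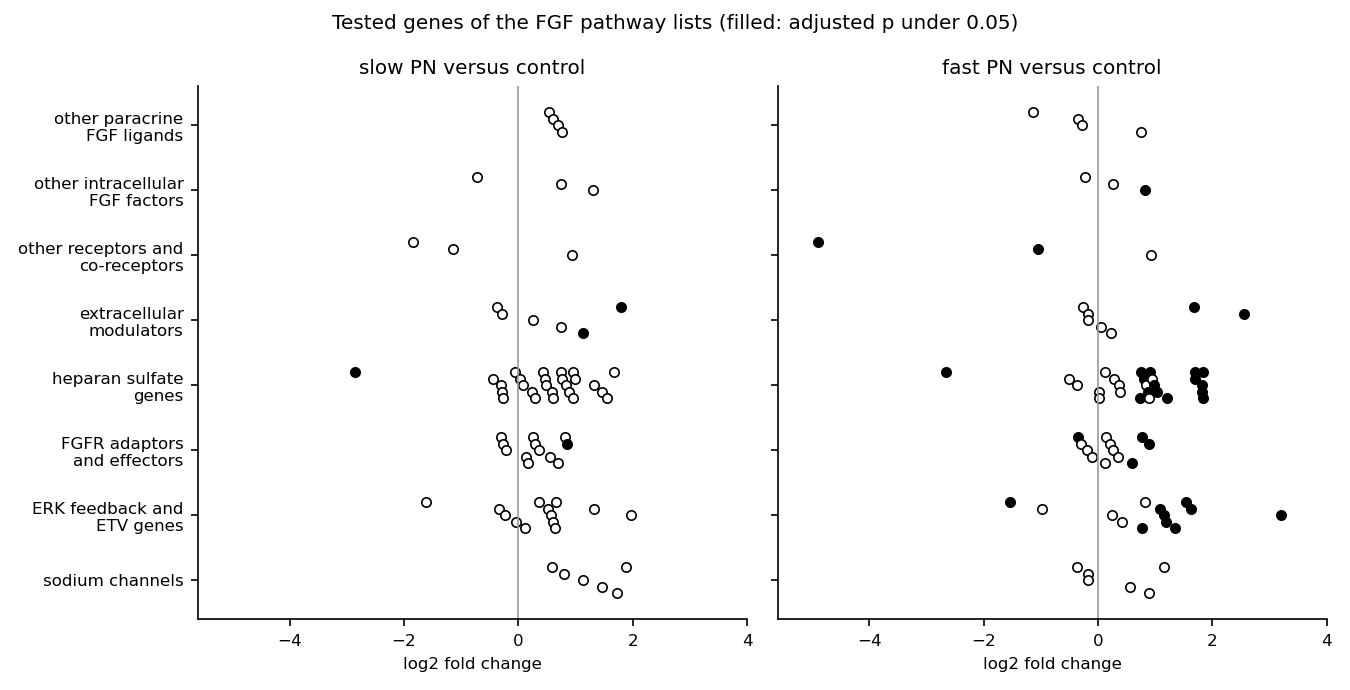
Log2 fold changes of the tested genes of 8 FGF pathway lists of each growth group versus the same 3 controls, with filled circles for an adjusted p under 0.05 by edgeR's quasi-likelihood test. In the heparan sulfate list 14 genes rise and 1 falls in fast-growing PNs, and in the feedback and ETV list 8 rise and 1 falls.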

How the data were processed

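Total RNA of whole tissue was amplified by the authors with the Ovation RNA-Seq System v2. The submitters' processing notes name TopHat2 2.0.9, featureCounts 1.5.2 and mm10. The deposited values used here are whole-number read counts per gene for 24062 genes and 14 libraries, without normalization. A deposited table of log2 values was not used. The processing was read from the labels and the study's methods, and the strand setting is not given in the sources used here.

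Counts were compared in R 4.3.3 with edgeR 4.0.16 (filterByExpr, TMM, quasi-likelihood test, Benjamini-Hochberg adjustment over all tested genes, threshold 0.05), with the libraries of each comparison only. Alternatives used DESeq2 1.42.0 and limma-voom (limma 3.58.1), and also covered the scaling, the filter, the libraries in the fit, marker scores as covariates, the length and GC trend, and each library left out. The fits were tested on simulated data. Replicates are numbered in accession order. The labels do not say whether the 3 control libraries came from separate mice, so p-values measure the spread between these samples. All pairs of libraries within a group differed by more than sampling noise. Depth was 9596773 to 17594164 counts per library.

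Gene positions, transcript lengths and exon overlaps were read from GENCODE for mm10 (22750 genes matched by symbol, 916 by an older symbol, 396 not matched). Promoter windows came from RefSeq. Figures were drawn with matplotlib 3.10.9. The members and gene lists were chosen with earlier results of these data known. Genes named are the 8 members, up to 3 genes per pathway list with the lowest p in PN versus control, the 2 nearest genes by root mean square difference for each member called (mean log2(CPM + 1) of at least 3), and markers that moved with a member. *Fgf4*, *Sdc1*, *Fgf8*, *Fgfr4* and *Fgf16* were named after their values had been seen. Since reads were amplified, the floor of 3 counts covers counting error only.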

Additional observations from a re-analysis of the deposited data

Results flagged for a closer look

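Within each growth group of PNs, the highest and lowest library of each of the 8 genes was compared with its nearest neighbour by Dixon's ratio (the gap divided by the range, on log2(CPM + 1)). Of 16 sets tested, 3 exceeded the 95% critical value, and chance flags about 1 in 20. *Fgf1* in slow-growing PN 2 was at 226.4 CPM, far below the other 4 slow-growing PNs (ratio 0.743). *Fgf2* in fast-growing PN 2 was at 4.352 CPM, below the other 5 fast-growing PNs (ratio 0.648). *Fgf13* in fast-growing PN 4 was at 4.234 CPM (ratio 0.68), in the library whose sensory neuron markers summed to 30.3 CPM.

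Among the FGF pathway genes, 2 passed edgeR's quasi-likelihood test (Benjamini-Hochberg) in fast- versus slow-growing PNs. Of all tested genes, 0.802% were higher and 0.466% were lower in fast-growing PNs. Limma-voom called 0 of the pathway genes, and DESeq2 called more of them, among them 4 heparan sulfate genes. Of all genes, DESeq2 called 1592, against 196 by edgeR. Without slow-growing PN 2, edgeR called 6 heparan sulfate genes and 5 feedback and ETV genes higher in fast-growing PNs. That fit called 1194 of all genes, against 196 with every library. *Fgf4* was lower in fast-growing PNs, with a log2 fold change of −1.83, and lost its call in 8 of 11 fits with 1 library left out (adjusted p of 0.0136 to 0.128). *Sdc1* was higher, with a log2 fold change of 1.03, and also lost its call in 8 of 11 such fits (adjusted p of 0.00937 to 0.129).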

How the results depend on the processing

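The rise of *Fgfr1* and the fall of *Fgf10* kept their direction under all alternatives tried, but the calls did not. Among the 8 genes, the number called in PNs versus controls was 2 with limma-voom, 2 with all 14 libraries in 1 fit, 0 with muscle and fat scores as covariates and 0 with the length and GC trend removed, in place of 1. It was 2 with DESeq2 in slow-growing PNs versus controls, 0 with the covariates in fast-growing PNs versus controls, and 1 with DESeq2 between the growth groups. With each library left out in turn, it ranged from 0 to 2, 0 to 1, 1 to 3 and 0 to 0 in the order of the comparisons. With the covariates, 408, 0, 0 and 0 of all genes were called in that order, with 3000, 883, 1084 and 1554 genes at an unadjusted p under 0.05. The number of all genes called in slow-growing PNs versus controls was 3529 with DESeq2 and 3280 with all 14 libraries in 1 fit. Between the growth groups it was 130 with RLE factors, 1592 with DESeq2, 34 with limma-voom and 423 with all 14 libraries. With each library left out it ranged from 2061 to 4779, from 599 to 2454, from 3342 to 5247 and from 2 to 1194. The causes were not tested. Controls and PNs do not overlap in fat or muscle scores, so fits with these scores cannot separate them from the groups.

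Fold changes turned sign mostly where they were small or under the covariates. With the covariates, *Fgf2* (−0.15), *Fgfr2* (−1.13) and *Klb* (0.50) turned in PNs versus controls, *Fgfr2* (0.10) in slow-growing PNs, and *Fgf1* (2.85), *Fgfr2* (−1.36), *Fgfr3* (−0.061), *Sdc1* (−0.013) and *Gab1* (−0.56) in fast-growing PNs. With the length and GC trend removed, *Fgfr2* (−0.10) turned in PNs, *Fgf2* (−0.12) in slow-growing PNs and *Fgf7* (−0.026) in fast-growing PNs. With each library left out, *Fgfr2* in PNs ranged from −0.049 (without control 2) to 0.32, and *Fgf1* in fast-growing PNs from −0.41 to 0.31 (without control 1), with 0.04 without fast-growing PN 6. Division by the union of exons in place of the longest transcript left the order of the 8 genes unchanged. Depth limits *Fgf10* most, with 2 to 18 counts in fast-growing PNs. No paired analysis was possible because the labels give no replicate numbers that groups share, and no member needed the test for genes that the filter removes.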

Other observations

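*Fgf16*, a paracrine ligand outside the 8 genes, had 33 counts (2.495 CPM) in fast-growing PN 4 and 0 to 5 counts in each of the other 13 libraries. The same library held the lowest sensory neuron markers and the highest *Fgf2* (11.95 CPM) of all PNs.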
